A study of Mus musculus with 16 samples.

Results

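The pyruvate dehydrogenase and citric acid cycle genes are 31 nuclear genes that carry pyruvate into the mitochondrion, convert it to acetyl-CoA and oxidise the acetyl group. They were found by gene symbol among the 57010 gene models of the deposited table, and all 31 passed the low-count filter that left 14066 genes. By role they are 2 pyruvate carriers, 5 pyruvate dehydrogenase subunits, 4 kinases and 2 phosphatases of that complex, 1 pyruvate carboxylase and 17 cycle enzymes. The 17 include Mdh1, the cytosolic form of malate dehydrogenase, which lies outside the mitochondrial cycle and is counted with its relative Mdh2. RNA was sequenced from cardiomyocytes isolated from adult hearts of C57BL/6 mice, labelled as wild type, in 16 libraries. Before surgery the mice were given AAV9, an adeno-associated virus that reaches heart muscle well and is used to deliver genes, carrying either PRODH (proline dehydrogenase, the first enzyme of proline oxidation) or no such insert (AAV9-Vector). Surgery came 3 weeks later, either transverse aortic constriction (TAC), a narrowing that puts the left ventricle under pressure load, or a sham operation, and hearts were taken 4 weeks after surgery. The groups of 4 libraries are PRODH TAC, Vector TAC, PRODH Sham and Vector Sham. All groups received a virus and an operation, and none is untreated. The sources used here give neither the age of the mice nor the promoter of the virus insert, whose expression is described as specific to the heart. Whether each library stems from its own animal is not stated, so the p-values reflect spread from library to library, and part of it may be technical.

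Pyruvate made from glucose or lactate crosses the inner mitochondrial membrane through the pyruvate carrier and is decarboxylated by the pyruvate dehydrogenase complex. Kinases of the Pdk family phosphorylate the complex and switch it off, and the phosphatases Pdp1 and Pdp2 switch it on again, so that their balance sets how much carbohydrate carbon enters the citric acid cycle. The cycle feeds electrons to the respiratory chain, and heart muscle, which draws most of its energy from fatty acids, expresses its enzymes at high levels.

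Counts per library totalled 15987580 to 22680212. Genes of the mitochondrial genome and their nuclear copies took 53.1% to 55.8% of them in the TAC libraries and 58.4% to 62.9% in the sham libraries. Values below are normalised CPM, read counts brought to one common total per library with TMM, a method that sets the bulk of genes equal between libraries. The summed level of 8 cardiomyocyte markers averaged 21716 CPM for PRODH TAC, 19530 for Vector TAC, 28173 for PRODH Sham and 27908 for Vector Sham, with no marker of the list at 0 in any library. These 8 markers were Myh6, Tnnt2, Actn2, Tnni3, Ryr2, Myl2, Ttn and Pln. The summed level of 7 fibroblast markers was 330.5 to 422 CPM in PRODH TAC, 1210.0 to 1277 in Vector TAC, 174 to 183 in PRODH Sham libraries and 145 to 197 in Vector Sham libraries, and none of the 7 was at 0 in any library. Markers of myeloid cells averaged 175, 307, 168 and 131 CPM in the same order of groups, and those of endothelium 439, 562, 297 and 296 CPM. Those of mural cells averaged 394, 436, 298 and 303 CPM. For 4 genes that mark atrial muscle the sums were 529, 2883, 155 and 201 CPM, of which Nppa, also a gene of the stressed ventricle, held 446, 2827, 117 and 154 CPM. Prodh averaged 13.6 ± 1.05 CPM in PRODH TAC, 7.28 ± 1.18 in Vector TAC, 13.8 ± 0.955 in PRODH Sham libraries and 10.95 ± 0.454 in Vector Sham libraries (SD, n = 4 each), and whether the viral transcript is counted there was not tested. Its log2 fold change of PRODH Sham over Vector Sham, 0.33 ± 0.10 (SE), missed the threshold (adjusted p = 0.0517, edgeR). In bulk RNA, fewer cells of a type and less RNA per cell cannot be told apart.

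Vector TAC libraries 3 and 4 stood apart from libraries 1 and 2 of that group. For 17 of the 31 genes both were below libraries 1 and 2 and for 5 both were above, where 25.2% and 26.0% of all tested genes had those orders. Results that change without them are given both ways. Vector Sham was uneven too, by the mean chi-squared per gene, which grows as the counts of 2 libraries differ more. It was 3.06 between Vector TAC libraries 3 and 4 and 9.63 to 30.7 for the other pairs of Vector TAC. Between Vector Sham libraries 3 and 4 it was 3.29, and 7.69 to 21.1 for the other pairs of Vector Sham. Only in Vector TAC were 2 libraries left out together. Scaling also matters: with library size alone in place of TMM, the median log2 fold change of all tested genes moved to 0.37 for Vector TAC against Vector Sham and to 0.40 for PRODH TAC against PRODH Sham, against 0.02 for both with TMM. Taken relative to the median of all genes, the median of the 31 members was -0.66 to -0.60 for Vector TAC against Vector Sham, -0.35 to -0.33 for PRODH TAC against PRODH Sham and 0.25 to 0.28 for PRODH TAC against Vector TAC over the 9 settings other than leaving out 1 library. Between scalings these differences stay alike by construction, since a new scaling shifts the log2 fold changes of all genes by about the same amount. They do not test whether the members' direction depends on scaling.

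Levels between genes were compared per kilobase of gene length, in CPM per kb. Mdh1, the cytosolic malate dehydrogenase, was highest in every group, at 498 ± 23.4 in PRODH TAC, 450.5 ± 12.1 in Vector TAC, 649 ± 22.0 in PRODH Sham libraries and 681 ± 35.7 in Vector Sham libraries (SD, n = 4 each). In Vector Sham, Mdh2 (609 ± 47.9) and Sdhb (585 ± 27.9) followed within each other's spread, and then Idh2 (484 ± 34.7) and Mpc1 (451 ± 29.7), which overlapped within 1 SD as well. The lowest in that group were Pdp1 at 9.24 ± 1.74, Pcx at 3.48 ± 0.516, Pdp2 at 2.80 ± 0.209 and Pdk3 at 0.570 ± 0.0937 CPM per kb. Over the kinases, Pdk4 made up 48.5% ± 2.32 of the summed level per kb in PRODH TAC, 46.0% ± 3.82 in Vector TAC, 46.0% ± 4.51 in PRODH Sham libraries and 57.6% ± 3.46 in Vector Sham libraries. Pdk2 held 40.5%, 43.1%, 45.4% and 35.02% in that order of groups, Pdk1 held 7.16% to 10.6% of it as group means, and Pdk3 held 0.227% to 0.784%.

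The first comparison the study set out asks what TAC does to cardiomyocytes that received the vector alone. Of the 31 genes, 29 were lower in Vector TAC than in Vector Sham, 1 was higher and 1 was not called, a count that was 21 lower and 2 higher with library size alone and 12 lower and 5 higher with scaling to the cardiomyocyte markers. A call is an adjusted p under 0.05 from the quasi-likelihood test of edgeR, adjusted after Benjamini and Hochberg. The fit of all 16 libraries with TMM, used unless an alternative is named, was adjusted over 14066 genes. Each alternative edgeR fit was adjusted over the genes that it tested. Over all tested genes, 26.2% were called lower and 30.3% higher with TMM. These shares were 8.52% lower and 53.1% higher with library size alone, and 5.07% and 65.8% with scaling to the cardiomyocyte markers. The marker scaling sets the marker sum equal in all libraries, so a change in the markers themselves shifts the values of all genes. With TMM, the median log2 fold change was -0.64 over the members, within a range of -1.87 to 1.02, and 0.02 over all genes. In 26 members every Vector TAC library was below every Vector Sham library, an order that 21.1% of all tested genes had. In Pdk3 every one was above, as in 26.1% of genes. The 31 genes summed to 8642 ± 271 CPM in Vector TAC and 13061 ± 374 in Vector Sham (SD, n = 4 each). Set against the 8 cardiomyocyte markers, which themselves were lower in 7 of 8 cases, that sum was 0.443 ± 0.0261 times the marker sum in Vector TAC and 0.469 ± 0.0128 in Vector Sham, and the libraries overlapped. Fibroblast markers, by contrast, were higher in all 7 cases, and the part of any change in cell make-up in the members' result was not tested.

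**Figure D1:**
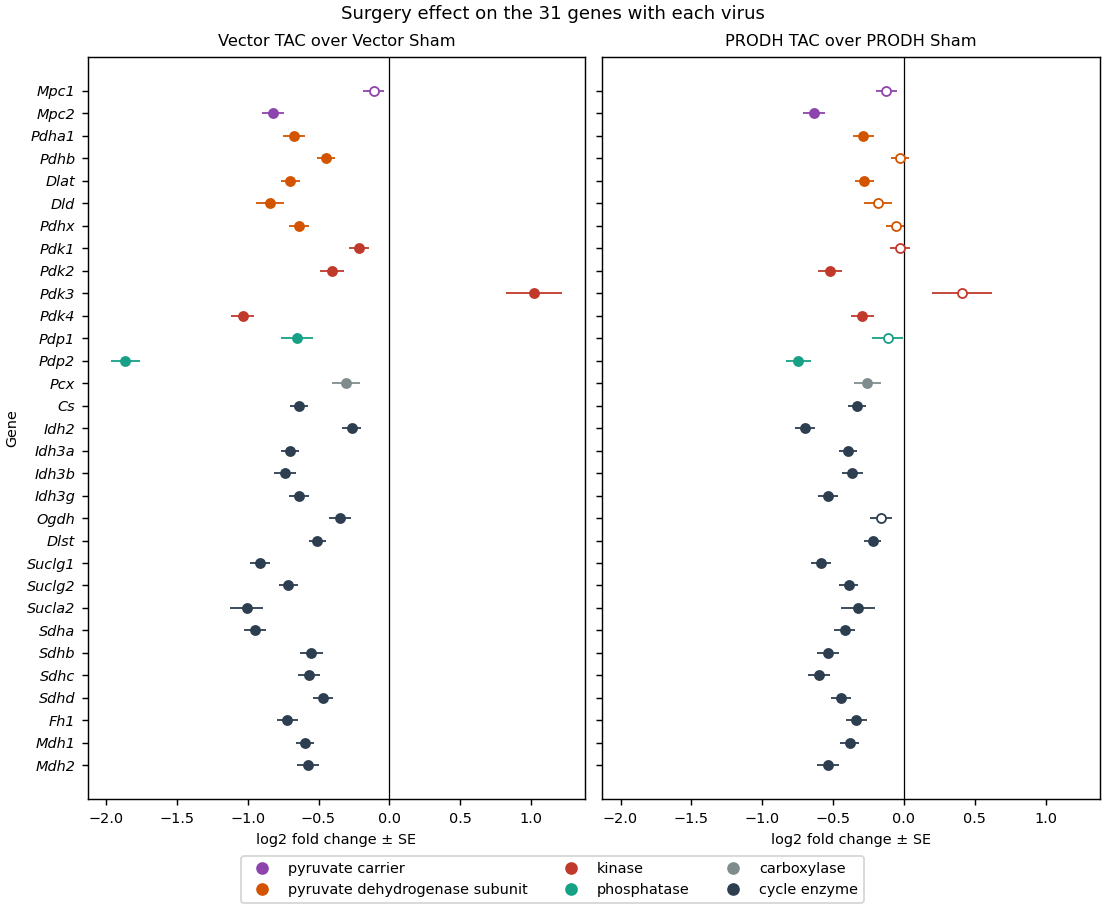
Log2 fold change ± SE (edgeR, TMM scaling) of each of the 31 genes for Vector TAC over Vector Sham and PRODH TAC over PRODH Sham, with filled points for genes at an adjusted p under 0.05 and colours for roles. Filled points lie left of 0 in both panels apart from Pdk3 under the vector; with library size alone, 5 genes under the vector (Idh2, Mpc1, Ogdh, Pcx and Pdk1) and 16 under PRODH turn positive, and with scaling to the cardiomyocyte markers 9 (the same 5, Dlst, Pdhb, Pdk2 and Sdhd) and 16.

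The pyruvate carrier is built from Mpc1 and Mpc2, which need each other for transport, and of these Mpc2 was called and Mpc1 was not. Mpc2 had 162, 175, 146 and 141 CPM in the Vector TAC libraries, against 258, 291, 273 and 283 CPM in Vector Sham. All Vector TAC libraries were below all Vector Sham libraries, by -0.82 ± 0.08 (SE; adjusted p = 3.05e-10) on the log2 scale. Mpc1 had 377, 436, 401 and 391.8 CPM in Vector TAC, against 413, 407, 468 and 445 CPM in Vector Sham. These groups overlapped, with a log2 fold change of -0.11 ± 0.07 (SE; adjusted p = 0.199). The sign turned and Mpc1 was called higher with library size alone (0.24) and with scaling to the cardiomyocyte markers (0.40). Mpc1 shares 23.05% of its exonic bases with an opposite-strand gene model in GENCODE M21, and the sources used here do not say whether the counting used strand.

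All 5 subunit genes of the pyruvate dehydrogenase complex were lower in Vector TAC than in Vector Sham, with no overlap between the groups, though with scaling to the cardiomyocyte markers Pdhb turned sign (0.07) and Pdha1 (-0.16) and Pdhx (-0.12) lost their calls. Pdhb also lost its call with library size alone (-0.09). Dlat, the E2 core that passes the acetyl group to coenzyme A, had 189, 199.5, 169 and 168 CPM in Vector TAC, against 318, 278, 279 and 301 CPM in Vector Sham. Its log2 fold change was -0.70 ± 0.07 (SE; adjusted p = 1.02e-09). Pdhx, the protein that anchors E3 to the core, had 73.3, 77.3, 63.7 and 62.0 CPM in Vector TAC, against 113, 107, 105 and 106 CPM in Vector Sham, a log2 fold change of -0.64 ± 0.07 (SE; adjusted p = 3.90e-09). In both genes Vector TAC libraries 3 and 4 were the lowest. The log2 fold changes were -0.67 ± 0.08 (SE; adjusted p = 8.29e-09) for Pdha1 and -0.45 ± 0.06 (SE; adjusted p = 6.84e-07) for Pdhb, the subunits of the E1 decarboxylase, and -0.84 ± 0.10 (SE; adjusted p = 9.99e-08) for Dld, the E3 that reoxidises the lipoyl arm and also serves the 2-oxoglutarate dehydrogenase complex. Pdha1 shares 16.15% of its exonic bases with Map3k15 on the opposite strand and had fractional counts in all 16 libraries, which marks them as estimates.

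Among the kinases, Pdk4, Pdk2 and Pdk1 were lower and Pdk3 higher in Vector TAC than in Vector Sham, with the sign of Pdk1 turning with library size alone (0.14) and those of Pdk1 and Pdk2 with scaling to the cardiomyocyte markers (0.30 and 0.11). With the marker scaling Pdk1 was called higher. Pdk2 also lost its call with library size alone (-0.05). Pdk4, the isoform induced by fasting and fatty acids, had 257, 256, 226 and 219 CPM in Vector TAC, against 539.6, 445, 472 and 506 CPM in Vector Sham. The highest TAC library lay far below the lowest sham library, and the log2 fold change was -1.03 ± 0.08 (SE; adjusted p = 6.28e-12), or 0.488 times the Vector Sham level. Pdk2, which is widely expressed, had 140.1, 127, 168 and 145 CPM in Vector TAC, against 172, 209, 199.6 and 187 CPM in Vector Sham, without overlap (log2 fold change -0.40 ± 0.09 SE, adjusted p = 2.32e-04). Pdk1, a target of hypoxia-inducible factor, had 88.0, 77.5, 74.2 and 72.6 CPM in Vector TAC, against 98.3, 86.0, 85.7 and 92.9 CPM in Vector Sham. The Pdk1 groups overlapped, the log2 fold change was -0.22 ± 0.07 (SE; adjusted p = 0.012), and the call was lost without Vector TAC library 4 (adjusted p = 0.0506, within a range of 0.00183 to 0.383 over all alternatives) and without libraries 3 and 4 together (adjusted p = 0.191). Pdk3, the least abundant isoform, had 2.59, 2.65, 2.62 and 2.06 CPM in Vector TAC, against 0.996, 1.42, 1.09 and 1.32 CPM in Vector Sham. Every TAC library was above every sham library, and the log2 fold change was 1.02 ± 0.20 (SE; adjusted p = 6.34e-05), or 2.03 times the Vector Sham level. These Pdk3 values rest on 38 to 61 counts per library in Vector TAC and 14 to 28 in Vector Sham. The fibroblast marker sum was also higher in Vector TAC than in Vector Sham. Within Vector TAC, library 4 had the lowest Pdk3 value and the highest fibroblast sum (1277 CPM). The part of that sum in the Pdk3 values was not tested.

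Of the phosphatases that reactivate the complex, Pdp2 had the largest fall of the 31 genes. It had 4.64, 4.78, 3.83 and 4.17 CPM in Vector TAC, against 17.6, 15.7, 14.7 and 15.8 CPM in Vector Sham. The groups lay far apart, with a log2 fold change of -1.87 ± 0.10 (SE; adjusted p = 2.04e-15), or 0.274 times the Vector Sham level, and it stayed negative under every scaling tried. Pdp1, the calcium-stimulated isoform, had 14.8, 17.99, 14.9 and 14.0 CPM in Vector TAC, against 28.7, 17.9, 25.5 and 25.3 CPM in Vector Sham. Its groups overlapped through Vector Sham library 2, and the log2 fold change was -0.65 ± 0.11 (SE; adjusted p = 2.36e-05), a call lost with scaling to the cardiomyocyte markers (-0.14). Pcx, pyruvate carboxylase, which makes oxaloacetate from pyruvate and so refills the cycle, had 10.8, 11.2, 13.5 and 11.6 CPM in Vector TAC, against 11.2, 15.8, 15.5 and 15.2 CPM in Vector Sham. The low Vector Sham library 1 overlapped the TAC group, and the log2 fold change of -0.30 ± 0.10 (SE; adjusted p = 0.00885) turned sign with library size alone (0.05) and with scaling to the cardiomyocyte markers (0.21).

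**Figure D2:**
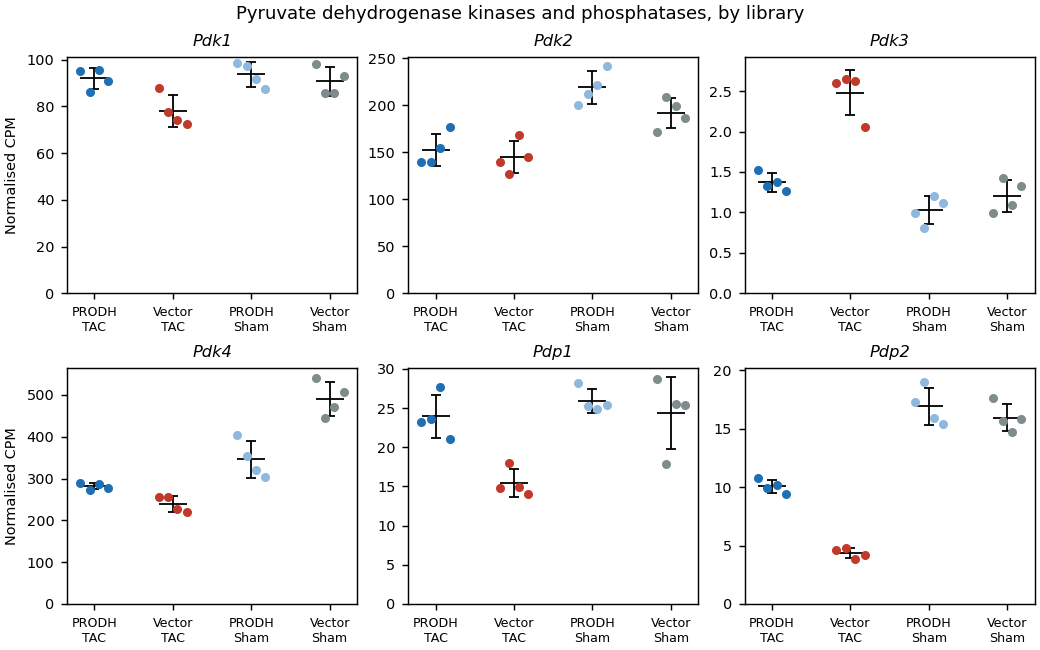
Normalised CPM (vertical axes, from 0) of the 4 kinases and 2 phosphatases of the pyruvate dehydrogenase complex in each library (points, 4 per group), with the mean and SD of each group in black. Pdk3 is highest in Vector TAC, Pdp2 lowest there, and Pdk4 highest in Vector Sham.

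The stretch of 250 bases before the annotated start is shown for Pdk4, Pdk3, Pdp2 and Idh2, the genes whose response stood apart: the only member that differed between the sham groups, the rise and the largest fall after TAC, and the cycle enzyme that was lower still with PRODH. The sequences are from RefSeq on GRCm38.p6, written 5′ to 3′ on the gene's strand, with capitals for a CCAAT box on either strand (CCAAT or its complement ATTGG).
Pdk4, chr6:5496279-5496528, minus strand: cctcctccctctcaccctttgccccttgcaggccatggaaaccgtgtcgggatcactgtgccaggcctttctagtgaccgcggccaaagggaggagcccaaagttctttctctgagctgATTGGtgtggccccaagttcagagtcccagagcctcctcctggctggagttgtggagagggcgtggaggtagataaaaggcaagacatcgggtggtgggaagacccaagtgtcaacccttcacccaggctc
Pdk3, chrX:93832151-93832400, minus strand: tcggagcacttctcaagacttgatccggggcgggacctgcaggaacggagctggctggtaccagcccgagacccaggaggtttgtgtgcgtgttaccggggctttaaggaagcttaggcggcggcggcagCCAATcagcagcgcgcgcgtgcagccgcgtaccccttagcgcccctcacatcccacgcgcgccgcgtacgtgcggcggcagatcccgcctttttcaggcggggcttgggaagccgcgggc
Pdp2, chr8:104591222-104591471, plus strand: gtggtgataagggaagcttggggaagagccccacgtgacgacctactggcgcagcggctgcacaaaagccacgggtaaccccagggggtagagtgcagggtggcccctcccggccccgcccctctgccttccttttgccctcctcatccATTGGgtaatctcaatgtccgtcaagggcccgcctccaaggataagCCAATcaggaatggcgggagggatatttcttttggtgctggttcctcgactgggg
Idh2, chr7:80115351-80115600, minus strand: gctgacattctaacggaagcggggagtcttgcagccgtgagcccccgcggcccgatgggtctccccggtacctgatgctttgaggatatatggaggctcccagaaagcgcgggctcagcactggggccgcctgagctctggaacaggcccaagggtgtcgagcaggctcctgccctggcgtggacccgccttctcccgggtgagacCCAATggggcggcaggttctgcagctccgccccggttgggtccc

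A window of 250 bases before and 50 after the start was found for 28 of the 31 genes by symbol. A CCAAT box lay in the windows of 19 of these 28 genes (67.86%) and of 41.06% of 27025 genes with a window, a motif that was chosen after windows had been read. The median share of G and C was 61.33% in the members' windows and 52.67% in all windows. The estrogen-related receptor element TNAAGGTCA was found on either strand in the window of 1 member, Sdhd (3.571% of 28), and of 1.432% of all genes. The PPAR/RXR element, a direct repeat of AGGTCA with 1 base between the copies, and the NRF1 palindrome, GCGCA followed by TGCGC, were searched in the same way and were in no member window, and in 0.0481% and 1.073% of all genes. A match describes letters in a window and no binding.

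All 17 cycle enzymes were called lower in Vector TAC than in Vector Sham, with no overlap in any of them, a direction that turned for Idh2 and Ogdh with library size alone and for Idh2, Ogdh, Dlst and Sdhd with scaling to the cardiomyocyte markers. Of these Idh2 (0.25) and Ogdh (0.16) were called higher with scaling to the cardiomyocyte markers. With that scaling Cs (-0.12), Idh3g (-0.12), Sdhb (-0.04), Sdhc (-0.06), Mdh1 (-0.08) and Mdh2 (-0.06) kept a negative value and lost their calls, as did Dlst (-0.16) and Sdhd (-0.12) with library size alone. The smallest p belonged to Suclg1, the alpha subunit shared by both succinyl-CoA ligases. It had 150.3, 168, 151 and 154 CPM in Vector TAC, against 302, 315, 285 and 274 CPM in Vector Sham, a log2 fold change of -0.91 ± 0.07 (SE; adjusted p = 5.33e-12). Of its partners, Sucla2, which forms the ATP-producing ligase, averaged 226 ± 57.5 CPM in Vector TAC and 455 ± 30.5 in Vector Sham (log2 fold change -1.01 ± 0.12 SE, adjusted p = 4.85e-07), and Suclg2, which forms the GTP-producing ligase, averaged 72.7 ± 4.01 and 119 ± 7.65 CPM in the same groups (log2 fold change -0.71 ± 0.07 SE, adjusted p = 4.53e-10). Sucla2 was split within Vector TAC, whose libraries 1 to 4 had 245, 299, 181 and 179.7 CPM, the last 2 below the others. Sdha, the flavoprotein of succinate dehydrogenase, had 434, 450.0, 362 and 357 CPM in Vector TAC, against 821, 792, 725 and 751 CPM in Vector Sham, a log2 fold change of -0.95 ± 0.08 (SE; adjusted p = 1.20e-11). The other subunits of that enzyme fell by 0.55 ± 0.08 for the iron-sulfur protein Sdhb, 0.57 ± 0.08 for the membrane anchor Sdhc and 0.47 ± 0.07 for the membrane anchor Sdhd on the log2 scale (SE; adjusted p = 6.10e-07, 2.80e-07 and 1.83e-06), and whether these falls differ from that of Sdha was not tested.

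Idh2, the NADP-dependent mitochondrial isocitrate dehydrogenase, had 709, 724, 693 and 682 CPM in Vector TAC, against 790.4, 931, 825 and 832 CPM in Vector Sham, a log2 fold change of -0.27 ± 0.07 (SE; adjusted p = 0.00184) without overlap. Idh2 was positive (0.09) with library size alone and called higher (0.25) with scaling to the cardiomyocyte markers. The NAD-dependent isocitrate dehydrogenase, which runs the forward cycle, fell by 0.70 ± 0.06 for its catalytic alpha subunit Idh3a, by 0.74 ± 0.08 for Idh3b and by 0.64 ± 0.07 for Idh3g on the log2 scale (SE; adjusted p = 1.26e-10, 2.46e-09 and 7.82e-09). Citrate synthase (Cs), which joins acetyl-CoA to oxaloacetate, averaged 517 ± 14.1 CPM in Vector TAC and 805 ± 21.4 in Vector Sham (log2 fold change -0.64 ± 0.06 SE, adjusted p = 6.41e-10). The 2-oxoglutarate dehydrogenase subunits Ogdh (E1) and Dlst (E2) had log2 fold changes of -0.35 ± 0.08 (SE; adjusted p = 3.05e-04) and -0.51 ± 0.06 (SE; adjusted p = 5.34e-08). Fumarase (Fh1) had -0.72 ± 0.07 (SE; adjusted p = 1.04e-09), Mdh1 -0.60 ± 0.07 (SE; adjusted p = 6.15e-09) and the mitochondrial malate dehydrogenase Mdh2 -0.57 ± 0.08 (SE; adjusted p = 2.60e-07).

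**Figure D3:**
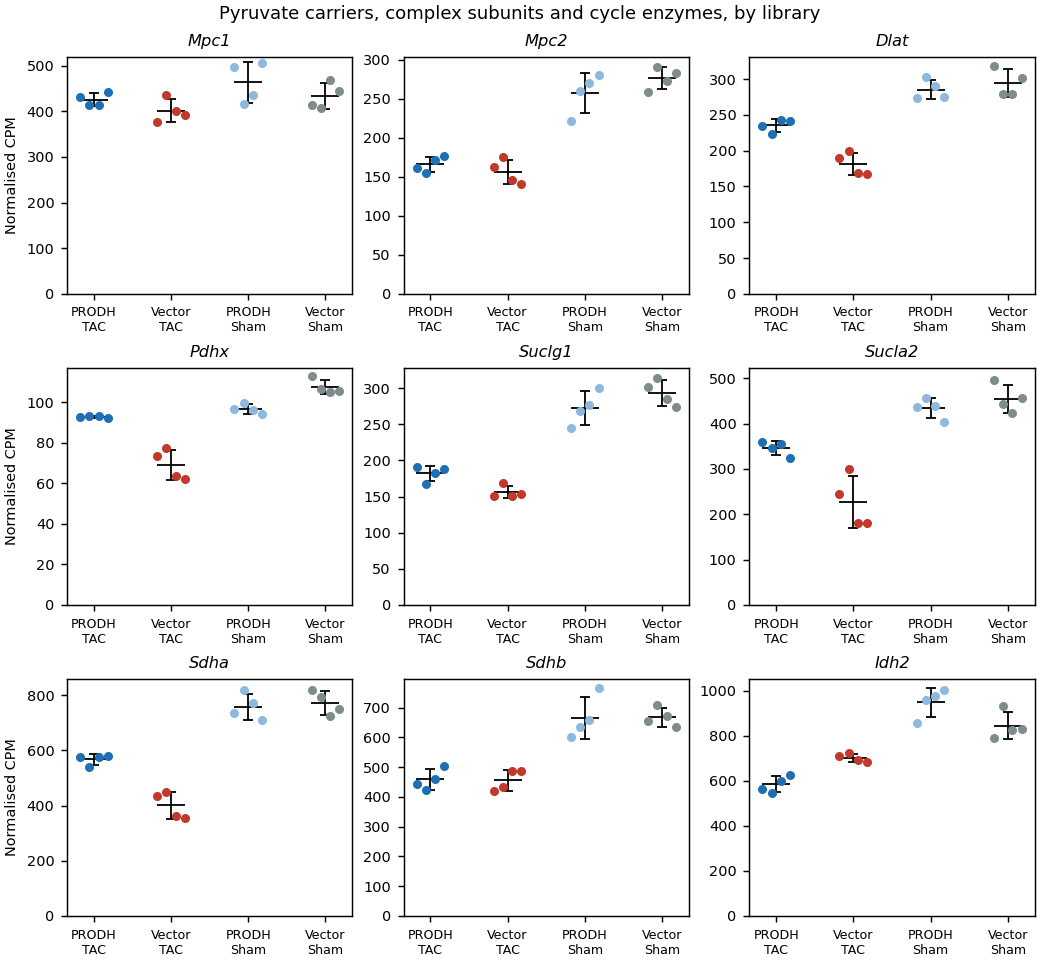
Normalised CPM (vertical axes, from 0) of the pyruvate carriers, 2 subunit genes of the pyruvate dehydrogenase complex and 5 cycle enzymes in each library (points, 4 per group), with the mean and SD of each group in black. Sdha and Pdhx are higher in PRODH TAC than in Vector TAC without overlap, Sdhb and Mpc2 overlap between these groups, and Idh2 is lowest in PRODH TAC.

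The second comparison of the study asks how PRODH and vector hearts differ after TAC. Of the 31 genes, 19 were higher in PRODH TAC than in Vector TAC, 2 were lower and 10 were not called, a count that was 10 higher and 3 lower with scaling to the cardiomyocyte markers and 20 higher and 2 lower with library size alone. Over all tested genes, 18.5% were called higher and 24.6% lower with TMM. These shares were 9.19% higher and 37.3% lower with scaling to the cardiomyocyte markers, and 19.6% and 20.2% with library size alone. The members' median log2 fold change was 0.24, within a range of -0.85 to 1.21, and that of all genes was -0.04. In 18 members all PRODH TAC libraries were above all Vector TAC libraries (16.7% of all genes), and in 2 all were below (22.6% of all genes). The 31 genes summed to 9985 ± 409 CPM in PRODH TAC and 8642 ± 271 in Vector TAC (SD, n = 4 each). Relative to the cardiomyocyte markers, of which 4 of 8 were higher and 1 lower, the sum was 0.460 ± 0.00285 times the marker sum in PRODH TAC and 0.443 ± 0.0261 in Vector TAC, with overlap. All 7 fibroblast markers were lower in PRODH TAC than in Vector TAC, and their part in the members' result was not tested. The Vector TAC libraries serve in this comparison and in the one above, so its folds and those above are not independent. Without Vector TAC libraries 3 and 4, an alternative chosen after the data had been seen, 15 members were higher and 2 lower. Of all genes tested in that fit, 12.1% were called higher and 17.3% lower.

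The subunits of the pyruvate dehydrogenase complex were all higher in PRODH TAC than in Vector TAC, 5 of 5 without overlap. Pdhx had 92.9, 93.2, 93.4 and 92.0 CPM in PRODH TAC, against 62.0 to 77.3 CPM in Vector TAC. Its log2 fold change was 0.43 ± 0.07 (SE; adjusted p = 9.15e-06). Dlat had 234, 223, 243 and 242 CPM in PRODH TAC, against 168 to 199.5 CPM in Vector TAC. Dlat had a log2 fold change of 0.38 ± 0.07 (SE; adjusted p = 7.16e-05). Dld showed the largest fold of the 5, with 316 to 359 CPM in PRODH TAC, against 181 to 278 CPM in Vector TAC (log2 fold change 0.63 ± 0.10 SE, adjusted p = 1.54e-05). The log2 fold changes were 0.37 ± 0.08 (SE; adjusted p = 2.06e-04) for Pdha1 and 0.36 ± 0.06 (SE; adjusted p = 4.09e-05) for Pdhb. Neither carrier gene was called: Mpc1 had 432, 415, 414 and 442 CPM in PRODH TAC and 401 ± 24.9 (mean ± SD) in Vector TAC (log2 fold change 0.09 ± 0.07 SE, adjusted p = 0.358), and Mpc2 had 161, 155, 172 and 176 CPM in PRODH TAC and 156 ± 15.6 in Vector TAC (log2 fold change 0.09 ± 0.08 SE, adjusted p = 0.377). Both carriers overlapped between the groups. Nor was Pcx called, with 13.4, 12.3, 12.7 and 13.1 CPM in PRODH TAC and 11.8 ± 1.18 in Vector TAC (log2 fold change 0.13 ± 0.10 SE, adjusted p = 0.267).

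Pdp2 had the largest rise of the members, with 10.8, 9.91, 10.2 and 9.45 CPM in PRODH TAC, against 3.83 to 4.78 CPM in Vector TAC. That is 2.31 times the Vector TAC level, a log2 fold change of 1.21 ± 0.10 (SE; adjusted p = 1.01e-10), with every PRODH TAC library above every Vector TAC library. Pdp1 had 23.3, 23.6, 27.7 and 21.1 CPM in PRODH TAC, against 14.0 to 17.99 CPM in Vector TAC (log2 fold change 0.63 ± 0.11 SE, adjusted p = 5.07e-05), also without overlap. Pdk3 was lower, with 1.53, 1.32, 1.38 and 1.26 CPM in PRODH TAC, against 2.06 to 2.65 CPM in Vector TAC. Its groups did not overlap, and the log2 fold change was -0.85 ± 0.19 (SE; adjusted p = 4.34e-04), on 32 to 38 counts per library in PRODH TAC and 38 to 61 in Vector TAC. Pdk1 had 95.1, 86.3, 95.5 and 90.9 CPM in PRODH TAC, against 72.6 to 88.0 CPM in Vector TAC, with overlap. Pdk1 had a log2 fold change of 0.24 ± 0.07 (SE; adjusted p = 0.00861). Pdk4 had 289, 273, 288 and 278 CPM in PRODH TAC, against 219 to 257 CPM in Vector TAC. Pdk4 had a log2 fold change of 0.24 ± 0.08 (SE; adjusted p = 0.0186). The Pdk4 call was lost without Vector TAC library 3 (0.21; adjusted p = 0.0564) or 4 (0.20; adjusted p = 0.0765), and without both its log2 fold change was 0.14 (adjusted p = 0.266, the range over all alternatives being 0.00215 to 0.532). With scaling to the cardiomyocyte markers Pdk4 and Pdk1 were both at 0.08 and not called. Pdk2 was not called, with 140.2, 139, 155 and 176 CPM in PRODH TAC and 145 ± 17.4 in Vector TAC (log2 fold change 0.07 ± 0.09 SE, adjusted p = 0.51).

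Of the 17 cycle enzymes, 10 were higher in PRODH TAC than in Vector TAC, 1 was lower and 6 were not called, and 5 of these 6 (Idh3g, Mdh1, Mdh2, Sdhb and Sdhd) turned negative with scaling to the cardiomyocyte markers. Sdha had 575, 539, 578 and 580.1 CPM in PRODH TAC, against 357 to 450.0 CPM in Vector TAC, without overlap. Sdha had a log2 fold change of 0.50 ± 0.08 (SE; adjusted p = 4.10e-06). Its partners were not called: Sdhb had 445, 424, 461 and 505 CPM in PRODH TAC and 418, 433, 488 and 486 CPM in Vector TAC (log2 fold change 0.01 ± 0.08 SE, adjusted p = 0.944). Sdhc had a log2 fold change of -0.03 ± 0.08 (SE; adjusted p = 0.817) and was called lower with scaling to the cardiomyocyte markers (-0.18), while Sdhd had 0.10 ± 0.07 (SE; adjusted p = 0.274). Whether the folds of these partners differ from that of Sdha was not tested. Sucla2 had 360.0, 346, 355 and 325 CPM in PRODH TAC, against 179.7 to 299 CPM in Vector TAC (log2 fold change 0.62 ± 0.12 SE, adjusted p = 3.12e-04), and Suclg2 had 0.30 ± 0.07 on the log2 scale (SE; adjusted p = 8.20e-04). Suclg1 had 191, 167, 182 and 188 CPM in PRODH TAC, against 150.3 to 168 CPM in Vector TAC, where 1 PRODH TAC library overlapped. Suclg1 had a log2 fold change of 0.22 ± 0.07 (SE; adjusted p = 0.0117). Fh1, Cs and Dlst rose by 0.36 ± 0.07, 0.29 ± 0.06 and 0.28 ± 0.06 on the log2 scale (SE; adjusted p = 1.82e-04, 4.57e-04 and 6.71e-04). Idh3b, Idh3a and Ogdh rose by 0.31 ± 0.08, 0.26 ± 0.06 and 0.23 ± 0.08 (SE; adjusted p = 0.00197, 0.00138 and 0.0147). With scaling to the cardiomyocyte markers Cs (0.13), Dlst (0.12), Idh3a (0.11), Idh3b (0.15), Ogdh (0.08), Suclg1 (0.07) and Suclg2 (0.14) lost their calls. The Ogdh call was lost without Vector TAC library 2 (0.16; adjusted p = 0.0696, within 0.00101 to 0.346 over all alternatives), and those of Idh3b, Suclg1 and Pdk1 without Vector TAC libraries 3 and 4 together (adjusted p = 0.145, 0.0849 and 0.161, within 7.81e-05 to 0.145, 6.99e-04 to 0.377 and 0.00108 to 0.44 over all alternatives).

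Idh2 went the other way. It had 566, 548, 599 and 626 CPM in PRODH TAC, against 709, 724, 693 and 682 CPM in Vector TAC. All PRODH TAC libraries were below all Vector TAC libraries, and the log2 fold change was -0.26 ± 0.07 (SE; adjusted p = 0.00321), negative under every scaling tried. Mdh1, with 1037, 997, 1079.6 and 1111 CPM in PRODH TAC and 931 to 992 in Vector TAC, did not overlap but missed the threshold (log2 fold change 0.14 ± 0.07 SE, adjusted p = 0.076). Mdh1 was called with library size alone (0.19). It passed in 8 of the 16 fits that leave out 1 library, those without a sham library (adjusted p = 0.0123 to 0.0280, within 0.00424 to 0.893 over all alternatives). Idh3g and Mdh2 had log2 fold changes of 0.05 ± 0.07 (SE; adjusted p = 0.58) and 0.04 ± 0.08 (SE; adjusted p = 0.743).

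**Figure D4:**
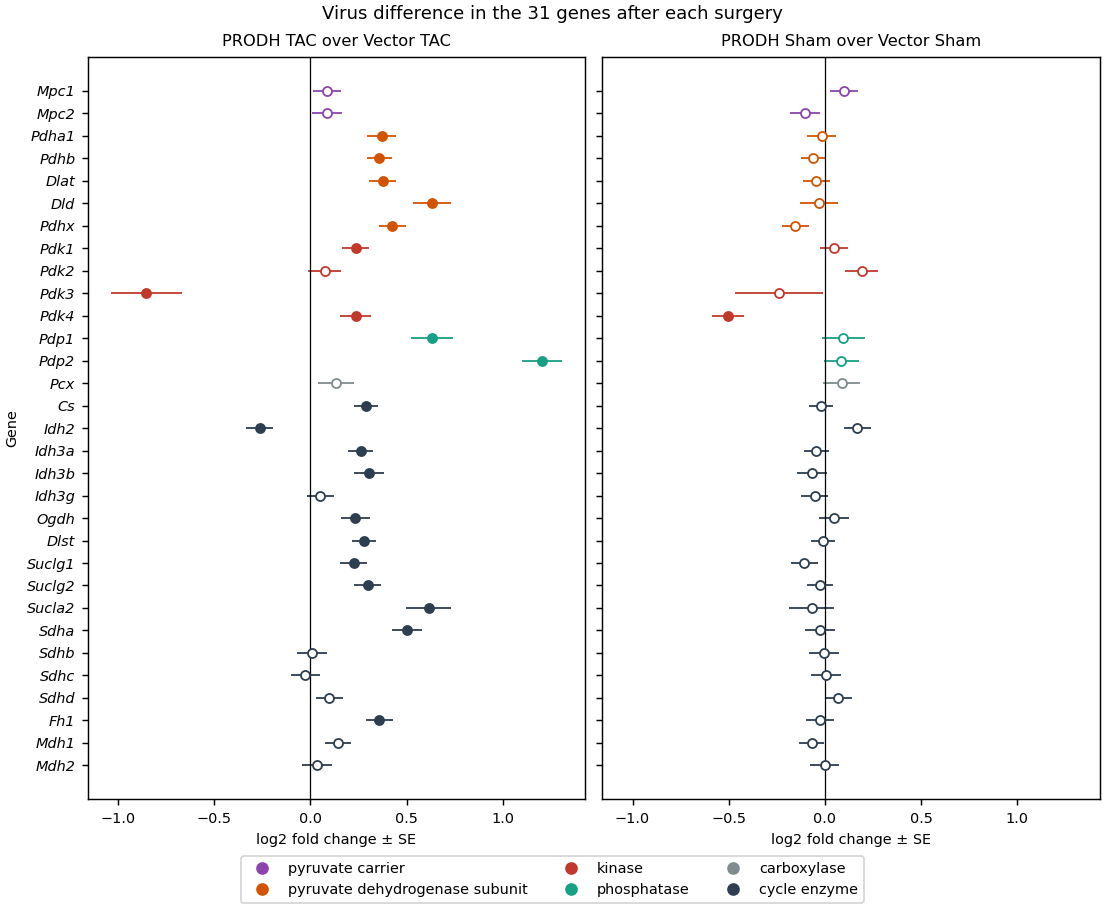
Log2 fold change ± SE (edgeR, TMM scaling) of each of the 31 genes for PRODH TAC over Vector TAC and PRODH Sham over Vector Sham, with filled points for genes at an adjusted p under 0.05. In the left panel 19 filled points lie right of 0 and Pdk3 and Idh2 left of it, while in the right panel Pdk4 alone is filled; with scaling to the cardiomyocyte markers 9 open genes of the left panel turn negative (Idh3g, Mdh1, Mdh2, Mpc1, Mpc2, Pcx, Pdk2, Sdhb and Sdhd).

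Surgery in hearts that received PRODH was compared in the same way. Of the 31 genes, 23 were lower in PRODH TAC than in PRODH Sham, none was higher and 8 were not called with TMM. This direction did not hold under all scalings. With library size alone 7 were higher and 5 lower, and with scaling to the cardiomyocyte markers 7 were higher and 7 lower. Over all tested genes, 17.8% were called lower and 17.2% higher with TMM. These shares were 2.21% lower and 56.0% higher with library size alone, and 2.33% and 55.5% with scaling to the cardiomyocyte markers. The median log2 fold change was -0.33 over the members and 0.02 over all genes. In 24 members all PRODH TAC libraries were below all PRODH Sham libraries, an order that 17.4% of all genes had, and in Pdk3 all were above, as in 17.3% of genes. The members summed to 9985 ± 409 CPM in PRODH TAC and 12869.6 ± 314 in PRODH Sham. Relative to the cardiomyocyte markers the sums were 0.460 ± 0.00285 and 0.457 ± 0.0157 in the same groups, with overlap. All 7 fibroblast markers were higher in PRODH TAC than in PRODH Sham, and their part in these values was not tested. This comparison shares the PRODH TAC libraries with the one above.

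Among the carriers, Mpc2 had 155 to 176 CPM in PRODH TAC, against 222, 259, 270.0 and 280.0 CPM in PRODH Sham (log2 fold change -0.63 ± 0.08 SE, adjusted p = 2.81e-07), negative under every scaling tried. Mpc1 had 414 to 442 CPM in PRODH TAC and 498, 416, 435 and 506 CPM in PRODH Sham (log2 fold change -0.12 ± 0.07 SE, adjusted p = 0.193), called higher with library size alone (0.26) and with scaling to the cardiomyocyte markers (0.25). With TMM, only Mpc2 was called. Of the complex subunits, Dlat had 223 to 243 CPM in PRODH TAC, against 274, 303, 289.9 and 275 CPM in PRODH Sham (log2 fold change -0.28 ± 0.07 SE, adjusted p = 0.00246), and Pdha1 was called lower as well (log2 fold change -0.29 ± 0.08 SE, adjusted p = 0.00347), though both turned positive (0.10 and 0.09) with library size alone. Pdhx had 92.0 to 93.4 CPM in PRODH TAC and 97.0, 99.7, 96.0 and 94.1 CPM in PRODH Sham. Pdhx had a log2 fold change of -0.06 ± 0.07 (SE; adjusted p = 0.54). The Pdhx libraries did not overlap but lay close, and it was called higher with library size alone (0.32) and with scaling to the cardiomyocyte markers (0.32). Pdhb and Dld were not called, at -0.03 ± 0.06 (SE; adjusted p = 0.781) and -0.18 ± 0.10 (SE; adjusted p = 0.164). Pdhb was called higher with library size alone (0.35), with library size less mitochondrial genes and copies (0.15) and with scaling to the cardiomyocyte markers (0.34).

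Pdk2 had 139 to 176 CPM in PRODH TAC, against 200.1, 212, 221 and 242 CPM in PRODH Sham, a log2 fold change of -0.52 ± 0.09 (SE; adjusted p = 2.90e-05) that was smaller and not called with library size alone (-0.14) and with scaling to the cardiomyocyte markers (-0.15). Pdk4 had 273 to 289 CPM in PRODH TAC, against 404, 355, 321 and 304 CPM in PRODH Sham (log2 fold change -0.29 ± 0.08 SE, adjusted p = 0.00517), a sign that turned with library size alone (0.08) and a call that was lost without PRODH Sham library 1 (-0.18; adjusted p = 0.0745, within 0.00143 to 0.557 over all alternatives). PRODH Sham library 1 held the highest Pdk4 value of its group. Pdk1 had 86.3 to 95.5 CPM in PRODH TAC and 98.6, 97.2, 91.6 and 87.4 CPM in PRODH Sham, with overlap and no call. Pdk1 had a log2 fold change of -0.03 ± 0.07 (SE; adjusted p = 0.803). Pdk1 was called higher with library size alone (0.35) and with scaling to the cardiomyocyte markers (0.34). Pdk3 had 1.26 to 1.53 CPM in PRODH TAC, against 0.992, 0.810, 1.20 and 1.12 CPM in PRODH Sham, without overlap. Its log2 fold change was 0.41 ± 0.21 (SE; adjusted p = 0.141), not called with TMM and called with library size alone (0.79) and with scaling to the cardiomyocyte markers (0.78). Pdp2 had 9.45 to 10.8 CPM in PRODH TAC, against 17.3, 19.0, 15.9 and 15.4 CPM in PRODH Sham (log2 fold change -0.74 ± 0.09 SE, adjusted p = 2.41e-07), below in every library and negative under every scaling tried. Pdp1 had 21.1 to 27.7 CPM in PRODH TAC and 28.2, 25.2, 24.9 and 25.4 CPM in PRODH Sham, with overlap. Pdp1 had a log2 fold change of -0.11 ± 0.11 (SE; adjusted p = 0.441). Pdp1 was called higher with library size alone (0.26). Pcx had 12.3 to 13.4 CPM in PRODH TAC, against 16.3, 15.5, 14.7 and 15.2 CPM in PRODH Sham (log2 fold change -0.26 ± 0.09 SE, adjusted p = 0.0332), a sign that turned (0.12) with library size alone. The Pcx call was lost in 10 of the 16 fits that leave out 1 library, those without Vector Sham library 2, 3 or 4, PRODH TAC library 2, 3 or 4, or PRODH Sham library 1, 2, 3 or 4 (-0.25 to -0.20; adjusted p = 0.0594 to 0.145, within 0.0159 to 0.501 over all alternatives).

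Of the 17 cycle enzymes 16 were called lower in PRODH TAC than in PRODH Sham with TMM, all 16 without overlap, and Ogdh was not (log2 fold change -0.16 ± 0.08 SE, adjusted p = 0.0998), while with library size alone 6 of the 17 (Cs, Dlst, Fh1, Idh3b, Sucla2 and Ogdh) turned positive. Of these Ogdh was then called higher (0.21), and with scaling to the cardiomyocyte markers Ogdh (0.21) and Dlst (0.15) were called higher. Idh3a, Idh3g, Suclg2, Sdha, Sdhd and Mdh1 lost their calls with library size alone and with scaling to the cardiomyocyte markers, and Sdhb and Mdh2 with library size alone. The largest fall was that of Idh2, with 566, 548, 599 and 626 CPM in PRODH TAC, against 858, 958, 979 and 1005 CPM in PRODH Sham. Its libraries were far apart, at -0.70 ± 0.07 (SE; adjusted p = 8.23e-09) on the log2 scale. Suclg1 had 167 to 191 CPM in PRODH TAC, against 245, 269, 277 and 300.4 CPM in PRODH Sham. Suclg1 had a log2 fold change of -0.58 ± 0.07 (SE; adjusted p = 2.52e-07). Sdha had 539 to 580.1 CPM in PRODH TAC, against 736, 819, 771 and 711 CPM in PRODH Sham. Sdha had a log2 fold change of -0.42 ± 0.08 (SE; adjusted p = 8.41e-05). Sdhc, Sdhb and Sdhd had log2 fold changes of -0.60 ± 0.08, -0.54 ± 0.08 and -0.44 ± 0.07 (SE; adjusted p = 6.41e-07, 4.06e-06 and 1.70e-05), and Mdh2 and Idh3g had -0.54 ± 0.08 and -0.53 ± 0.07 (SE; adjusted p = 3.60e-06 and 1.13e-06). The remaining called enzymes, Cs, Idh3a, Idh3b, Dlst, Suclg2, Sucla2, Fh1 and Mdh1, ranged from -0.39 (Idh3a) to -0.22 (Dlst). Sucla2 lost its call in 12 of the 16 fits that leave out 1 library, those without any 1 library of PRODH TAC, PRODH Sham or Vector Sham (-0.34 to -0.27; adjusted p = 0.0547 to 0.130, within 4.42e-04 to 0.786 over all alternatives). Ogdh was called without Vector TAC library 2 (-0.16; adjusted p = 0.0466, within 0.0129 to 0.902 over all alternatives).

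Between the sham groups, few of these genes differed by virus. Of the 31, 1 was lower in PRODH Sham than in Vector Sham and none was higher, where 2.20% of all tested genes were called lower and 2.81% higher. That gene was Pdk4, with 404, 355, 321 and 304 CPM in PRODH Sham, against 539.6, 445, 472 and 506 CPM in Vector Sham. All PRODH Sham libraries were below all Vector Sham libraries, at 0.705 times the Vector Sham level, a log2 fold change of -0.50 ± 0.08 (SE; adjusted p = 7.82e-05). The call held under each scaling, filter and tool and in each of the 16 fits that leave out 1 library. Pdhx was also below in every PRODH Sham library, by -0.15 ± 0.07 (SE; adjusted p = 0.244), and was not called, and an order without overlap was found in 5.17% of all genes below and 5.25% above. The other members had log2 fold changes of -0.24 (Pdk3) to 0.19 (Pdk2), with a median of -0.02 over all 31.

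The surgery effects with PRODH and with the vector were set against each other in an interaction term, the log2 fold change of TAC over sham with PRODH minus that with the vector. A positive value means a higher fold with PRODH. It was called positive for 17 of the 31 genes and negative for 1, where 10.9% and 15.8% of all tested genes were called in these directions, and the count was 7 positive and 1 negative with scaling to the cardiomyocyte markers and 12 and 1 without Vector TAC libraries 3 and 4. The median was 0.31 over the members and -0.04 over all genes. By role, all 5 complex subunits, both phosphatases, Pdk4 and 9 cycle enzymes were positive and Idh2 was negative, while no carrier, no other kinase and not Pcx were called. The smallest p belonged to Pdp2, at 1.12 ± 0.14 (SE; adjusted p = 3.74e-07): its fold of TAC over sham was 0.597 with PRODH and 0.274 with the vector. For Pdk4 the value was 0.74 ± 0.11 (SE; adjusted p = 1.40e-05), with a fold of 0.816 with PRODH and 0.488 with the vector. Here the sham groups differed too, since Pdk4 averaged 346 ± 44.0 CPM in PRODH Sham libraries and 491 ± 41.1 in Vector Sham libraries. For Pdhx it was 0.58 ± 0.10 (SE; adjusted p = 4.03e-05), with folds of 0.961 with PRODH and 0.642 with the vector. For Idh2 it was -0.43 ± 0.10 (SE; adjusted p = 0.00158), with folds of 0.615 with PRODH and 0.831 with the vector. Sdhb, Sdhc, Sdhd and Mdh2 had values of 0.01 ± 0.11, -0.03 ± 0.11, 0.03 ± 0.10 and 0.04 ± 0.11 (SE), none of them called (adjusted p = 0.945, 0.867, 0.87 and 0.838). Without Vector TAC libraries 3 and 4 the calls of Pdha1, Pdp1, Idh3b, Suclg1, Suclg2 and Fh1 were lost (adjusted p = 0.0714, 0.0887, 0.1248, 0.0508, 0.0725 and 0.0525) and Ogdh was called (0.32; adjusted p = 0.0312). With scaling to the cardiomyocyte markers 10 calls were lost, those of Pdha1 (0.24), Pdp1 (0.40), Cs (0.16), Idh3a (0.17), Idh3b (0.23), Dlst (0.14), Suclg1 (0.19), Suclg2 (0.18), Sucla2 (0.53) and Fh1 (0.24). Over all alternatives the adjusted p was 5.17e-04 to 0.109 for Pdha1, 1.67e-04 to 0.117 for Pdp1, 7.68e-04 to 0.138 for Idh3b, 0.00116 to 0.105 for Suclg1, 0.00214 to 0.158 for Suclg2, 5.31e-04 to 0.069 for Fh1 and 0.0312 to 0.779 for Ogdh. Mdh1 was called without Vector Sham library 3 or 4 or PRODH Sham library 1 or 4 (0.25 to 0.29; adjusted p = 0.0178 to 0.0475, within 0.0125 to 0.547 over all alternatives).

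Ratios of paired genes within a library do not depend on the scaling between libraries. For 11 ratios of levels per kb, each of the 4 comparisons between groups was tested with an exact two-sided permutation test of 4 against 4 libraries. With such groups the smallest p is 0.0286, which 21 of the 44 tests reached. Adjusted over the 44 it came to 0.0599, so no ratio passed 0.05 after adjustment. Geometric means are given. Pdk4:Pdk2 was 1.07 in Vector TAC and 1.65 in Vector Sham (exact permutation p = 0.0286, adjusted p = 0.0599), and 1.02 in PRODH Sham against the same Vector Sham value (exact permutation p = 0.0286, adjusted p = 0.0599). Pdk3:Pdk2 was 0.00957 in PRODH TAC, 0.0182 in Vector TAC, 0.00496 in PRODH Sham libraries and 0.00663 in Vector Sham libraries, and no pair of compared groups overlapped. Between the sham groups the gap was very narrow, from 0.00577 in PRODH Sham library 3 to 0.00578 in Vector Sham library 3, on low Pdk3 counts. Pdp1:Pdp2 was 5.11 in PRODH TAC, 7.65 in Vector TAC, 3.32 in PRODH Sham libraries and 3.26 in Vector Sham libraries, with overlap between the sham groups alone. Idh2:Idh3a was 2.83 in PRODH TAC, 4.07 in Vector TAC, 3.50 in PRODH Sham libraries and 3.01 in Vector Sham libraries. It was highest in Vector TAC and lowest in PRODH TAC, and of the compared pairs the sham groups alone overlapped. Mpc1:Mpc2 was 2.74 in PRODH TAC, 2.75 in Vector TAC, 1.92 in PRODH Sham libraries and 1.67 in Vector Sham libraries, higher after TAC than after sham with either virus and overlapping between viruses. Pdha1:Pdhb was 0.567, 0.560, 0.678 and 0.657 in that order of groups, lower after TAC than after sham with either virus. Mdh1:Mdh2 was 1.19 in PRODH TAC and 1.10 in Vector TAC without overlap. Pdk4:Pdha1 was 0.408 in PRODH TAC, 0.449 in Vector TAC, 0.408 in PRODH Sham libraries and 0.575 in Vector Sham libraries. Of its compared pairs, PRODH TAC and PRODH Sham alone overlapped. Pdk1:Pdk2 was 0.262, 0.234, 0.186 and 0.205 in that order of groups, and PRODH TAC and PRODH Sham alone did not overlap. Sucla2:Suclg2 and Pcx:Pdha1 overlapped between the groups in all 4 comparisons. A ratio shows unequal change of its genes, not that either stayed the same.

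**Figure D5:**
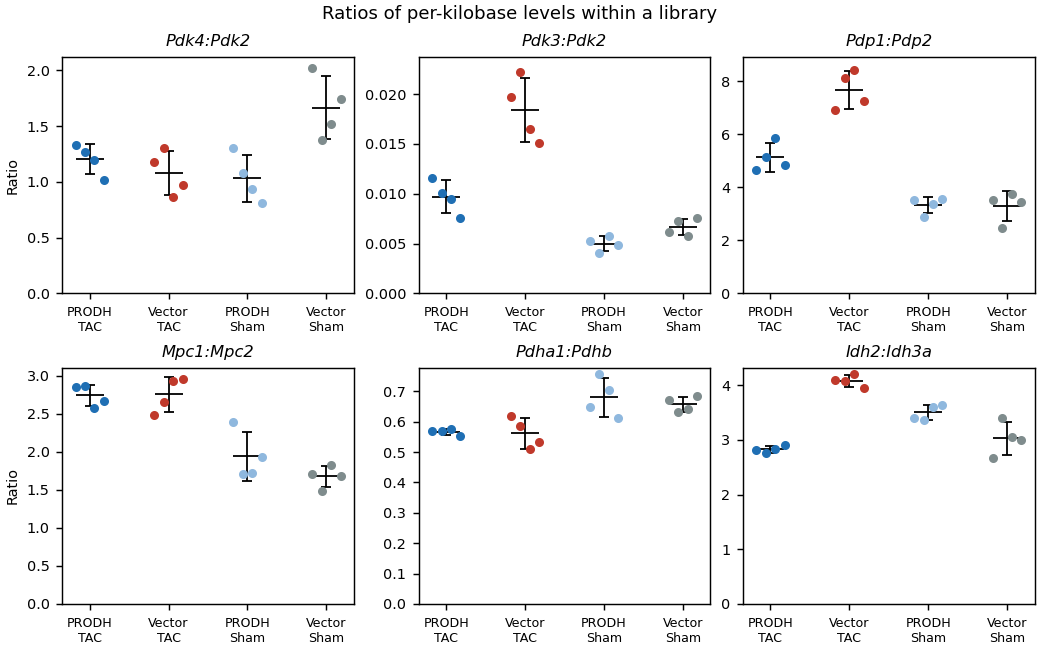
Ratios of levels per kb (vertical axes, from 0) of 6 gene pairs within each library (points, 4 per group), with the arithmetic mean and SD of each group in black. Pdk4:Pdk2 stands highest in Vector Sham, Pdp1:Pdp2 and Idh2:Idh3a are highest in Vector TAC, and Mpc1:Mpc2 is higher after TAC than after sham with either virus.

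Another 33 measured genes of related steps (among them lactate dehydrogenases, malic enzymes, mitochondrial carriers, lipoylation enzymes and assembly factors of succinate dehydrogenase) were looked at beside the 31. In Vector TAC against Vector Sham, 24 were lower and 4 higher with a median log2 fold change of -0.45, but 5 were lower and 13 higher with scaling to the cardiomyocyte markers. Of all tested genes, 26.2% were called lower and 30.3% higher with TMM, and 5.07% and 65.8% with that scaling. The lowest p values were those of Ogdhl, an Ogdh-like subunit (log2 fold change -0.78 ± 0.06 SE, adjusted p = 1.96e-11), Ldhb, the heart form of lactate dehydrogenase (log2 fold change -0.80 ± 0.07 SE, adjusted p = 8.10e-11), and Got1, the cytosolic aspartate aminotransferase (log2 fold change -0.75 ± 0.07 SE, adjusted p = 1.33e-10). Ldhb averaged 506 ± 11.7 CPM in Vector TAC and 884 ± 55.4 in Vector Sham (SD, n = 4 each). Higher were Pck2, the mitochondrial phosphoenolpyruvate carboxykinase (log2 fold change 1.34 ± 0.13 SE, adjusted p = 3.00e-10), Acly, which splits citrate in the cytosol (log2 fold change 0.56 ± 0.10 SE, adjusted p = 2.41e-05), and Slc25a1, the citrate exporter (log2 fold change 0.77 ± 0.16 SE, adjusted p = 2.11e-04). Pck2 averaged 9.57 ± 1.25 CPM in Vector TAC and 3.76 ± 0.484 in Vector Sham.

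In PRODH TAC against Vector TAC, 10 of the 33 were higher and 3 lower, and with scaling to the cardiomyocyte markers 6 and 7. Of all tested genes, 18.5% were called higher and 24.6% lower with TMM, and 9.19% and 37.3% with that scaling. Idh1, the cytosolic NADP-dependent isocitrate dehydrogenase, averaged 35.5 ± 0.988 CPM in PRODH TAC and 22.7 ± 0.998 in Vector TAC (log2 fold change 0.65 ± 0.08 SE, adjusted p = 7.11e-08), the opposite direction to its mitochondrial relative Idh2. Pdpr, the regulatory subunit of pyruvate dehydrogenase phosphatase, averaged 28.7 ± 2.40 CPM in PRODH TAC and 13.1 ± 3.26 in Vector TAC (log2 fold change 1.13 ± 0.16 SE, adjusted p = 3.02e-05), and Ogdhl averaged 69.0 ± 2.45 and 47.9 ± 2.16 CPM in the same groups (log2 fold change 0.53 ± 0.06 SE, adjusted p = 9.76e-08). Lower were Slc25a1 (log2 fold change -0.78 ± 0.16 SE, adjusted p = 1.75e-04), Pck2 (log2 fold change -0.46 ± 0.11 SE, adjusted p = 0.0014) and Sdhaf1, an assembly factor of succinate dehydrogenase (log2 fold change -0.27 ± 0.10 SE, adjusted p = 0.0273). The call of Pck2 was lost without Vector TAC libraries 3 and 4 (adjusted p = 0.0643) and that of Sdhaf1 with library size alone (adjusted p = 0.0770) or without mitochondrial genes in it (adjusted p = 0.0568). In PRODH TAC against PRODH Sham, 4 were higher and 21 lower, a split that was 9 and 3 with library size alone and 10 and 3 with scaling to the cardiomyocyte markers. The shares of all tested genes called higher and lower were 17.2% and 17.8%, 56.0% and 2.21%, and 55.5% and 2.33% in that order. Between the sham groups none of the 33 was called, where 2.81% of all tested genes were called higher and 2.20% lower. No correlation between these comparisons is given, since they share libraries.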

How the data were processed

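RNA-seq libraries of 16 cardiomyocyte samples were analysed from a table of estimated counts per gene that the authors deposited, not scaled between libraries. Per the labels' protocols, TRIzol was used for extraction and a SMARTER mRNA-Seq kit for library preparation. The sources used here do not give the aligner, the counting tool, the genome build or the use of strand. Groups were taken from the sample titles, and no column of a single library was left out. Fractional counts were rounded to whole numbers.

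Genes were filtered with filterByExpr (minimum count 10, minimum total 15), scaled by TMM and fitted over all 16 libraries with a term per group in edgeR 4.0.16 (R 4.3.3, limma 3.58.1 and version 1.17.8 of data.table). The robust quasi-likelihood test was adjusted over 14066 genes at a threshold of 0.05, and alternative edgeR fits over the genes that each tested. Fold changes used a prior count of 0.125. The model was tested on simulated data. DESeq2 1.42.0, other scalings, no filter, fits of 2 groups, a replicate term and fits without 1 library were alternatives. Ratios, promoter windows and figures used Python 3.11.15 with pandas 2.3.3, numpy 2.4.6 and matplotlib 3.10.9. Counts per library totalled 15987580 to 22680212, and no pair of libraries of a group agreed within sampling noise.

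Promoter windows are RefSeq sequences on GRCm38.p6, matched by symbol for 28 of the 31 genes, and exon overlaps are from GENCODE M21, and levels per kb use the gene lengths of the deposited table. The members and gene lists were chosen with earlier results of these data known. Values per library are given for the member of each role with the smallest p in the 2 comparisons the study set out, for every kinase and phosphatase, for members called against the common direction, and for the 3 members with the smallest p in the interaction.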

Additional observations from a re-analysis of the deposited data

Results flagged for a closer look

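In 7 of 124 groups of 4 libraries, 1 library lay so far from the other 3 that its gap to the nearest, as a share of the range of the group, exceeded Dixon's critical value. Chance flags about 1 in 20 groups. Fh1 was lowest in PRODH Sham library 1, at 252 CPM, where the other 3 libraries had 273 to 276 CPM, a share of 0.8974. Pcx was lowest in Vector Sham library 1, at 11.2 CPM, where the other 3 libraries had 15.2 to 15.8 CPM, a share of 0.8588. Pdhb was highest in Vector TAC library 2, at 436 CPM, where the other 3 libraries had 405 to 406 CPM, a share of 0.9461. Pdk3 was lowest in Vector TAC library 4, at 2.06 CPM, where the other 3 libraries had 2.59 to 2.65 CPM, a share of 0.9046. Pdp1 was highest in PRODH Sham library 1, at 28.2 CPM, where the other 3 libraries had 24.9 to 25.4 CPM, a share of 0.8548. Sdha was lowest in PRODH TAC library 2, at 539 CPM, where the other 3 libraries had 575 to 580.1 CPM, a share of 0.8723. Sdhd was lowest in PRODH Sham library 1, at 257 CPM, where the other 3 libraries had 279 to 281 CPM, a share of 0.941. PRODH Sham library 1 appears in 3 of these 7 groups.

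For 18 of the 31 genes the effect of surgery differed by virus in the interaction term of edgeR's quasi-likelihood fit, given here as the log2 fold change of TAC over sham with PRODH minus that with the vector, ± SE. In the pyruvate dehydrogenase complex it was 0.39 ± 0.11 for Pdha1, 0.42 ± 0.09 for Pdhb, 0.42 ± 0.10 for Dlat, 0.66 ± 0.14 for Dld and 0.58 ± 0.10 for Pdhx (adjusted p = 0.0073, 7.98e-04, 0.00198, 0.00101 and 4.03e-05). In its regulators it was 0.74 ± 0.11 for Pdk4, 0.54 ± 0.16 for Pdp1 and 1.12 ± 0.14 for Pdp2 (adjusted p = 1.40e-05, 0.0124 and 3.74e-07). In the isocitrate and 2-oxoglutarate steps and citrate synthase it was 0.31 ± 0.09 for Cs, -0.43 ± 0.10 for Idh2, 0.31 ± 0.09 for Idh3a, 0.37 ± 0.11 for Idh3b and 0.29 ± 0.09 for Dlst (adjusted p = 0.0106, 0.00158, 0.0116, 0.0112 and 0.0159). In the succinate and fumarate steps it was 0.33 ± 0.10 for Suclg1, 0.32 ± 0.10 for Suclg2, 0.68 ± 0.17 for Sucla2, 0.53 ± 0.11 for Sdha and 0.38 ± 0.10 for Fh1 (adjusted p = 0.0138, 0.0135, 0.0047, 4.56e-04 and 0.00549). Idh2 was the only negative one of the 18, where 10.9% of all tested genes were called positive and 15.8% negative. With scaling to the cardiomyocyte markers 10 of the 18 were not called, namely Pdha1, Pdp1, Cs, Idh3a, Idh3b, Dlst, Suclg1, Suclg2, Sucla2 and Fh1.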

How the results depend on the processing

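Scaling to cardiomyocyte markers and leaving out Vector TAC libraries 3 and 4 were chosen after seeing the data. Of 3844 alternative values of single members over 9 settings and the fits without 1 library, 3679 kept their side of the threshold, 116 of them with a change of sign while called in neither fit. Another 97 lost their call, 24 gained one and 44 that were called in either fit changed sign, all 44 under another scaling. Of the values called in either fit, those that turned positive with library size alone for Vector TAC against Vector Sham were Mpc1 0.24, Pdk1 0.14, Pcx 0.0496, Idh2 0.086 and Ogdh 0.00361, and for PRODH TAC against PRODH Sham Mpc1 0.26, Pdha1 0.086, Pdhb 0.35, Dlat 0.097, Pdhx 0.32, Pdk1 0.35, Pdk4 0.078, Pdp1 0.26, Pcx 0.12, Cs 0.043, Idh3b 0.015, Ogdh 0.21, Dlst 0.16, Sucla2 0.051 and Fh1 0.043. Without mitochondrial genes and copies in the library size, PRODH TAC against PRODH Sham gave Pdhb 0.15. With scaling to the cardiomyocyte markers they were Mpc1 0.40, Pdhb 0.069, Pdk1 0.30, Pdk2 0.11, Pcx 0.21, Idh2 0.25, Ogdh 0.16, Dlst 0.00769 and Sdhd 0.045 for Vector TAC against Vector Sham, and Mpc1 0.25, Pdha1 0.085, Pdhb 0.34, Dlat 0.095, Pdhx 0.32, Pdk1 0.34, Pdk4 0.072, Pcx 0.11, Cs 0.039, Idh3b 0.012, Ogdh 0.21, Dlst 0.15, Sucla2 0.049 and Fh1 0.039 for PRODH TAC against PRODH Sham.

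With library size alone, 2 members were higher for Vector TAC against Vector Sham, and 12 were called for PRODH TAC against PRODH Sham, 7 higher and 5 lower. Without mitochondrial genes 2 were higher for PRODH TAC against PRODH Sham, where 32.6% of all tested genes were called higher. With cardiomyocyte scaling, Vector TAC against Vector Sham had 17 called, 5 higher and 12 lower, PRODH TAC against Vector TAC 13 called, 10 of them higher, PRODH TAC against PRODH Sham 14 called, 7 higher and 7 lower, and the interaction 8 called, 7 of them positive. Of all called genes, 86.2% were then higher with library size alone and 92.8% with cardiomyocyte scaling for Vector TAC against Vector Sham, against 53.6% with TMM, and 96.2% and 96.0% for PRODH TAC against PRODH Sham, against 49.2%. DESeq2 called 1 member higher and 29 lower, 20 and 2, 0 and 23, 0 and 1, and 18 and 1 for the comparisons in the order of the report.

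Without 1 library, the members called were 29 to 30 for Vector TAC against Vector Sham (28 to 29 lower, 1 higher), 20 to 22 for PRODH TAC against Vector TAC (18 to 20 higher, 2 lower), 20 to 24 for PRODH TAC against PRODH Sham (all lower), 1 for PRODH Sham against Vector Sham and 18 to 19 for the interaction (17 to 18 positive, 1 negative). Of all tested genes in these fits, 23.7% to 27.0% were called lower for Vector TAC against Vector Sham. For PRODH TAC against Vector TAC 15.7% to 21.9% were called higher, and for PRODH TAC against PRODH Sham 12.0% to 18.4% lower. Between the sham groups 1.56% to 2.47% were called lower, and in the interaction 9.16% to 14.0% positive. With the replicate number as a block the counts were 1 higher and 29 lower, 19 and 2, 0 and 23, 0 and 1, and 17 and 1, and no member's call changed. Of all tested genes that fit called 30.2% higher and 26.3% lower, 18.8% and 24.8%, 17.4% and 17.9%, 2.94% and 2.20%, and 11.4% and 16.1%. Deviations of same-numbered libraries correlated at -0.13 to 0.17 over 24 pairs, 3 of them over 0.1. Those of differently numbered libraries correlated at -0.19 to 0.21 over 72 pairs, 8 of them over 0.1. The 3 same-numbered pairs over 0.1 all joined libraries numbered 1 (0.13 to 0.17). Whether the numbers pair the libraries is not settled by these values. Depth limits Pdk3 most, at 13 to 61 counts per library, and its values carry the largest errors of the members.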
